A study of Saccharomyces cerevisiae with 66 samples.

Results

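The 239 nucleosome-depleted regions (NDRs) of chromosome V were followed from every viewpoint of the series. They were chosen by position alone, as all regions on chromosome V among the 4828 of the deposited tables (4.95%). Chromosome V of budding yeast is 576874 bp long in the sacCer3 build, with its centromere at chrV:151987-152104, so 70 of the NDRs lay on the short left arm and 169 on the right arm. Their median length was 191 bp (48 to 612 bp) and their median spacing 1.97 kb. The midpoint of 220 NDRs was intergenic, 19 lay inside a gene, 203 had the start of a gene that reads away from them within 1 kb, and 30 had a tRNA gene within 1 kb. An NDR is named below by the 1 or 2 protein-coding genes that start beside it, or by the nearest gene where none does.

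The assay, MTAC, records chromosomal proximity as DNA methylation. An array of LacO sites is integrated at a chosen locus, the viewpoint (VP), and recruits a LacI fusion to M.CviPI, a methyltransferase that modifies the cytosine of GC dinucleotides. Yeast has no cytosine methylation of its own, and the enzyme works on accessible DNA, so loci that come near the VP gain methylation in their NDRs. Methylated fragments are pulled down with an antibody to 5-methylcytosine and sequenced (MeDIP-seq). Loci on the chromosome of the VP are in cis and other chromosomes are in trans.

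The VPs on chromosome V, 3 in all, lay on its right arm. TRP2 (chrV:337949-339472), a subunit of anthranilate synthase in the tryptophan pathway, lay 187 kb from the centromere. SHC1 (chrV:351698-353236), an activator of chitin synthesis during sporulation, lay 13.8 kb further along, and LSM4 (chrV:387232-387795), part of the Lsm ring that binds RNA in decay and splicing, 35.0 kb beyond SHC1. Between TRP2 and SHC1 lies MET6 (chrV:339864-342167), which encodes the methionine synthase and is read towards TRP2. Methionine genes are switched on when methionine is lacking, through the activator Met4 and the DNA-binding factor Cbf1.

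The strains of the chromosome V tables and of the 9 VPs named next were MATa haploids with mutant alleles of ade2, can1, his3, leu2, trp1 and ura3, and they carried the LacI-SV40NLS-M.CviPI fusion at ADH1 under a promoter opened by a hormone-dependent activator. Targeted strains held 256 LacO copies linked to HIS3 at the VP, and the control strain held the enzyme without the array. Cultures were grown in synthetic medium at 30 °C, and 2 nM β-estradiol was given for 2 h. The TRP2 strain was measured with methionine (TRP2 +met) and without it (TRP2 −met), each against a control grown the same way. SHC1, LSM4 and the 9 VPs YBP2, PUS2, OLE1, CDC43, PCL10, VHR1, LHS1, MBR1 and MNR2 on other chromosomes were set against 1 shared control. The study's text places the SHC1 measurement in medium without methionine, while the labels give no methionine state for it, for LSM4 or for the shared control, so where SHC1 is compared with them the VP and the medium cannot be told apart. For comparison there were 4 tables of YBP2 with 4, 8, 16 or 256 LacO copies after 1 h, and 4 of an array at TAF2 beside the mating-type locus on chromosome III, in MATa or MATα strains with the GAL10pr-HO::URA3 cassette given glucose (D) or galactose (G). The series held 66 libraries in 33 groups. Each strain and condition had 2 libraries, which the study describes as biologically independent, and each SE rests on the spread between them. The libraries came from whole cultures, so contact in more cells and more methylation per cell cannot be told apart.

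The deposited values are 1 base mean (normalized read count over targeted and control libraries), 1 log2 fold change of targeted over control and its SE per NDR and table. Values of single libraries were not used here, and no SD over libraries is given. An NDR is called higher where the log2 fold change was over 0.7 with an adjusted p under 0.05 (two-sided normal test on the deposited log2 fold change and SE, Benjamini-Hochberg over all NDRs of the table), and lower below −0.7. Depth differed between tables. The median base mean on chromosome V was 42.7 reads for SHC1, 49.5 for LSM4, 27.1 for TRP2 +met and 26.5 for TRP2 −met, and 16.2 to 51.9 in the other 17 tables. A median NDR on chromosome V had an SE of 0.317 (SHC1), 0.294 (LSM4), 0.286 (TRP2 +met) and 0.225 (TRP2 −met). The smallest of these stood in the table with the fewest reads, so the SEs did not follow depth. From TRP2 −met an ICL1 NDR had an SE of 0.194 at 6.34 reads. Whether fold changes and SEs of different tables are on 1 scale was not tested, which limits the differences between tables below. At the lowest base means both the deposited fold change and its SE were near 0, as at the left RPL34A NDR from TRP2 +met (−0.04, SE 0.081, at 0.285 reads), so a value near 0 there is not a measured absence of change.

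The sequences below are those on which the results turn: the NDRs nearest each VP, the NDR beside MET6, the NDRs that rose farther along the chromosome, and an NDR near TRP2 that offers the enzyme no site. All are the plus strand of the reference, 5′ to 3′, with each GC dinucleotide, the M.CviPI site, in capitals. The reference is strain S288C, and the study's strains are of another background.
PTC2/TRP2, chrV:337331-337527, no GC site: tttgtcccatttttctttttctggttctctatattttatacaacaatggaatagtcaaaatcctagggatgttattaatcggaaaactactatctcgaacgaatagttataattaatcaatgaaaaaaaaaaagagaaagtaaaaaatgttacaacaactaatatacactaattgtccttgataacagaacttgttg
TRP2, beyond its 3′ end, chrV:339528-339715, 3 GC sites: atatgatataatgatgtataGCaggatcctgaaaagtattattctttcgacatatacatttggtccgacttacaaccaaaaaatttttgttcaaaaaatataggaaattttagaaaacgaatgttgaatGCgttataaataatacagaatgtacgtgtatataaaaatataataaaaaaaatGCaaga
IES5/MET6, the middle 300 bases, chrV:342468-342767, 14 of the 21 GC sites: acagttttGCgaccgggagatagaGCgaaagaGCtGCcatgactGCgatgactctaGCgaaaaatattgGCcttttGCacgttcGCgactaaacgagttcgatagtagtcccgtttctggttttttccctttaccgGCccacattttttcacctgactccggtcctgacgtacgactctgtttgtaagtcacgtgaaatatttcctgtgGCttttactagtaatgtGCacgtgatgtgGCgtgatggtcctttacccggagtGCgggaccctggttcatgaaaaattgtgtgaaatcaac
SHC1, chrV:351363-351512, 5 GC sites: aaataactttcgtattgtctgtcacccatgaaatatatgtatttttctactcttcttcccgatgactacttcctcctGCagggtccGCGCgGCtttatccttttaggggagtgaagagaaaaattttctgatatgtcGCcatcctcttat
LSM4, chrV:386891-387131, 13 GC sites: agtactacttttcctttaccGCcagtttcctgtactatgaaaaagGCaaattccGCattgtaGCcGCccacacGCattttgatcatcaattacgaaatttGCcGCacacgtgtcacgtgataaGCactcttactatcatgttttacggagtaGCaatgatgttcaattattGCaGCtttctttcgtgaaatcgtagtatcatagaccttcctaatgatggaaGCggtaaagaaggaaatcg
PTP3, chrV:311466-311690, 18 GC sites: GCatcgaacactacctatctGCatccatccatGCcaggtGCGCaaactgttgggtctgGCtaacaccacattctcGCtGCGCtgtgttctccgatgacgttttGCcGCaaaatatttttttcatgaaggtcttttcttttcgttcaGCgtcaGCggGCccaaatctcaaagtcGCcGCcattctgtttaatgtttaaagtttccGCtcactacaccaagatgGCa
OXA1/PET122, chrV:474839-474990, 9 GC sites: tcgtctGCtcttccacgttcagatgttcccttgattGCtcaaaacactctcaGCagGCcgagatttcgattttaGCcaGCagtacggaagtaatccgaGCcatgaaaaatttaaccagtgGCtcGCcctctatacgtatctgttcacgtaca
COM2, chrV:422566-422792, 19 GC sites: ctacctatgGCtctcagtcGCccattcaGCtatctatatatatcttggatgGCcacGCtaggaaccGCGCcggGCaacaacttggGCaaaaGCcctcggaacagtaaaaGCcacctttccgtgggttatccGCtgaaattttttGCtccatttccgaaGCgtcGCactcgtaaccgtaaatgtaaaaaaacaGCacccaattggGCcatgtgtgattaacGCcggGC
MNN1, right of a pair beside the centromere, the middle 300 bases, chrV:153050-153349, 22 of the 25 GC sites: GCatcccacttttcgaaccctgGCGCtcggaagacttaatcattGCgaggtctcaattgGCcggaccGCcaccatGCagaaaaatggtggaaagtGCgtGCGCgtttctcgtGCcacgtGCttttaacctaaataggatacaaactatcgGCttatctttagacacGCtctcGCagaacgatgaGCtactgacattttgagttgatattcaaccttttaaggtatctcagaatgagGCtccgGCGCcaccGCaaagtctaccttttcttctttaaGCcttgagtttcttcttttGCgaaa

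Over the 239 NDRs the median number of GC sites was 7 and the highest 37, and 5 NDRs held none. CACGTG, the palindrome that Cbf1 binds, stood 2 times in the IES5/MET6 NDR, starting at 342657 and 342695, 2 times in the LSM4 NDR, starting at 386997 and 387004, and 1 time in the MNN1 NDR shown, at 153164. The letters CACGTG occurred in 19 of the 239 NDRs (7.95%), and in 4.40% of the 1998 NDRs on 8 chromosomes whose ends were at hand. The IES5/MET6 NDR also held 2 copies of TGACTC, the core letters of the site of the amino acid activator Gcn4, which occurred on either strand in 17 NDRs (7.11%, against 5.41% of the 1998). None of these matches is evidence of binding.

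From the SHC1 VP, 44 of the 239 NDRs were called higher (18.4%), where 4.31% of all NDRs were, and 1 was lower (0.973% of all NDRs). From LSM4 it was 19 (7.95%, against 4.23% of all NDRs), with 4 lower (1.43% of all). From TRP2 +met 6 were called higher (2.51%, against 0.124% of all), which were all of the higher calls in that table, and from TRP2 −met 7 (2.93%, against 0.249%) of the 12 in the table. Neither TRP2 table held an NDR called lower on chromosome V, where 0.269% of all NDRs were lower with methionine and 0 without. The number of higher calls over all chromosomes differed widely, with 208 at SHC1 and 204 at LSM4 against 6 and 12 at TRP2, so the counts of the 2 pairs of tables are not on 1 scale.

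**Figure D1:**
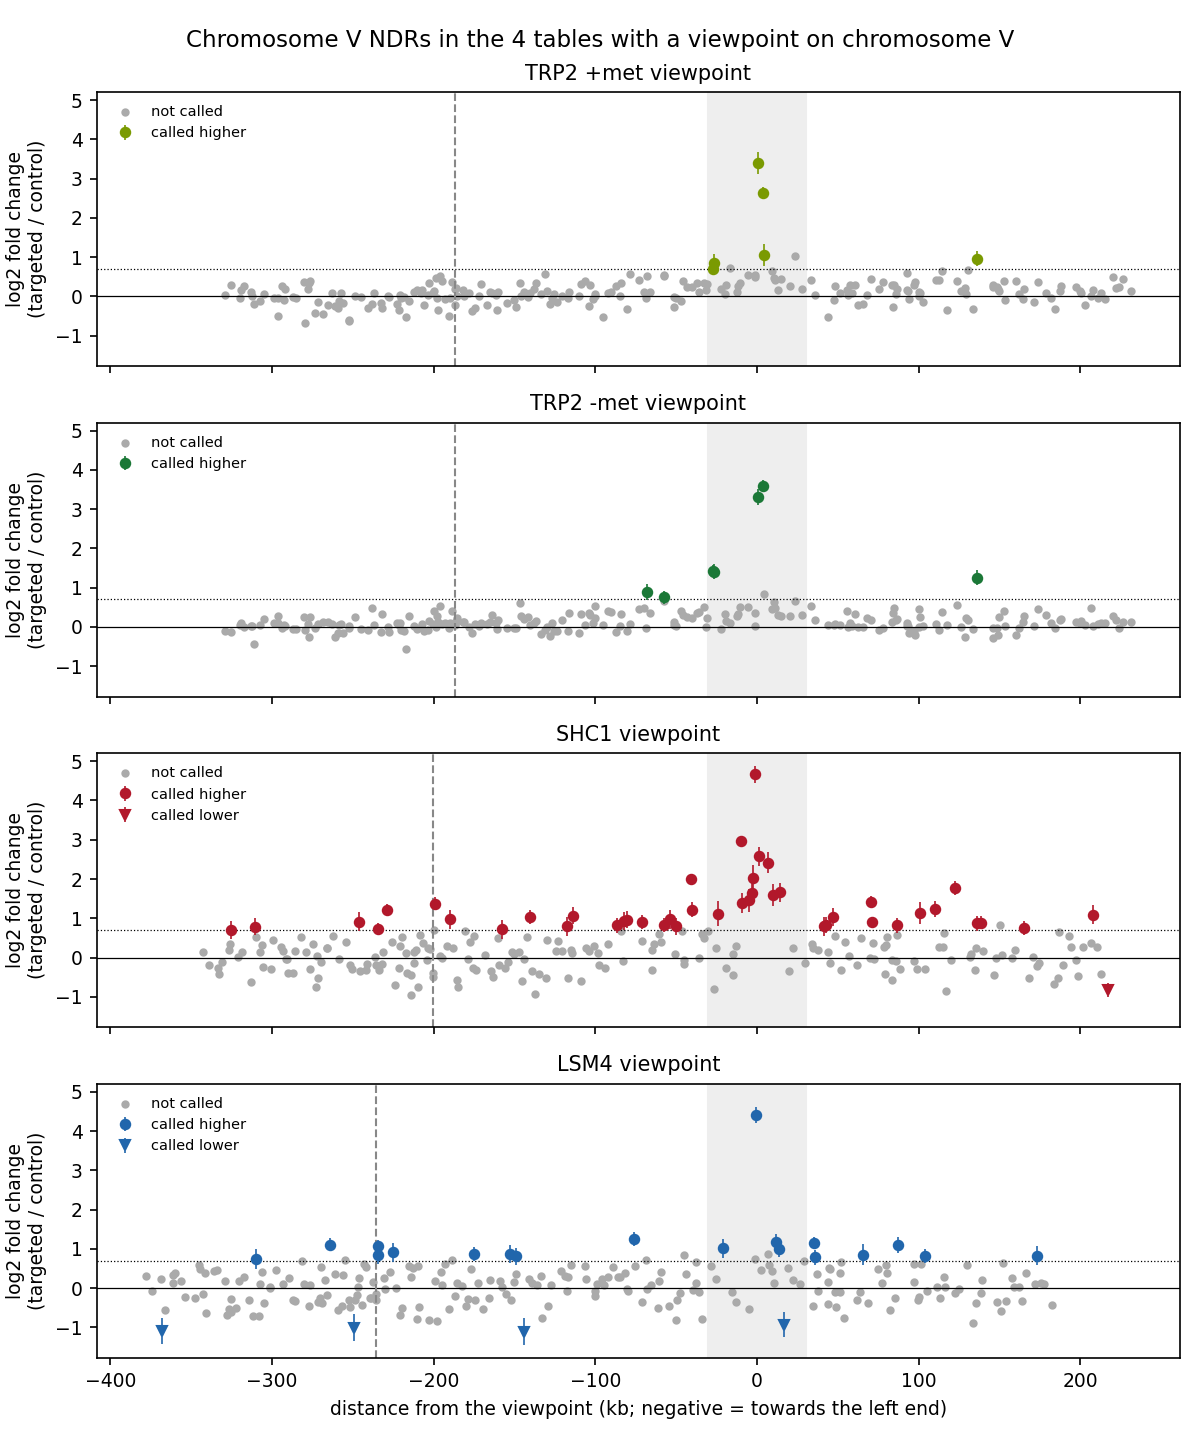
Log2 fold change of targeted over control for the 239 chromosome V NDRs against their distance in kb from the VP, 1 panel per table. Filled colored points with SE bars are called higher (circles) or lower (triangles), gray points are not called, the gray band is the local region of 30 kb on each side, the dotted line is the cutoff of 0.7 and the dashed vertical line the centromere. The highest points stand within 5 kb of the VP in every panel, and calls at SHC1 reach 325 kb away.

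Near the VP the highest value of each table lay 0.502 kb (LSM4) to 3.91 kb (TRP2 −met) away, and the signal was uneven around it. Within 30 kb, 11 of 20 NDRs were called higher from SHC1, 4 of 20 from LSM4, 5 of 23 from TRP2 +met and 4 of 23 from TRP2 −met. The NDR in front of SHC1, 1.03 kb from the midpoint of the gene, gave a log2 fold change of 4.67 (SE 0.220) at a base mean of 274. The one past its 3′ end, at 1.15 kb, gave 2.58 (SE 0.248). The shared promoter of PRS2, a phosphoribosylpyrophosphate synthetase, and UBC6, a ubiquitin-conjugating enzyme, gave 2.42 (SE 0.269) at 6.69 kb.

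Other called local NDRs at SHC1 were IES5/MET6 with 2.98 (SE 0.117), RTT105, a factor for replication protein A, with 1.66 (SE 0.241), RPS8B/AST2 with 1.60 (SE 0.284), the 2 NDRs before and inside TSC11, a subunit of TORC2, with 1.46 (SE 0.299) and 1.39 (SE 0.251), and YER085C/ILV1 with 1.12 (SE 0.312). ILV1 encodes threonine deaminase. The 9 local NDRs that were not called had base means of 14.9 to 121 reads and a median of 3 GC sites. The 11 that were called had 43.8 to 1772 reads and a median of 6 sites. The base mean includes the targeted libraries, so a rise from the VP itself raises it. Whether the uncalled NDRs were less covered apart from that rise was not tested.

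From LSM4 the NDR in front of the gene itself rose by 4.41 (SE 0.193, base mean 467), but its neighbors did not follow as they did at SHC1. The other called local NDRs were those of SHO1, an osmosensor of the plasma membrane, with 1.17 (SE 0.221), RTT105 with 1.01 (SE 0.253) and AVT6/SCS2 with 0.99 (SE 0.195), at 11.8, 20.8 and 13.5 kb. The SWI4/LSM4 NDR, only 1.18 kb from the VP, stood at 0.74 (SE 0.281) with an adjusted p of 0.0751 by the same test over all NDRs and was not called. GLO3/YCK3 on the end side of LSM4 was called lower at −0.94 (SE 0.318).

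From TRP2 the NDR between the 3′ ends of TRP2 and MET6, 0.911 kb from the VP, rose by 3.40 (SE 0.272) with methionine and by 3.31 (SE 0.206) without it. The IES5/MET6 NDR at 3.91 kb, in front of IES5, a subunit of the INO80 remodeler, and of MET6, rose by 2.63 (SE 0.148) and by 3.60 (SE 0.140). Both NDRs in front of PTP3, a protein tyrosine phosphatase that acts on MAP kinases, were called in both conditions. The left one gave 0.70 (SE 0.167) with methionine, just past the cutoff, and 1.44 (SE 0.153) without, and the right one 0.86 (SE 0.218) and 1.41 (SE 0.201). The NDR inside TSC11 was called with methionine alone, at 1.05 (SE 0.280) against 0.85 (SE 0.228) without, and that difference was not past its test. The NDRs in front of TRP2 itself, with 0 and 3 GC sites, stood at 0.54 (SE 0.300) and 0.49 (SE 0.287) with methionine and at 0.03 (SE 0.207) and 0.35 (SE 0.221) without it, at base means of 8.20 to 11.6 reads.

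The IES5/MET6 NDR shows how far the local signal of each VP reached at 1 site. Its log2 fold change was 3.60 from TRP2 −met, 2.98 from SHC1, 2.63 from TRP2 +met and 0.84 (SE 0.308, not called) from LSM4, 44.9 kb away. From the 9 other VPs that share the control of SHC1 it lay between 0.03 and 0.31. In the tables of the MAT locus it lay between 0.12 and 0.32, and in those of YBP2 after 1 h between −0.22 and 0.21. The 4 chromosome V values were above all of these, at an NDR 3.91 kb from TRP2 and 9.85 kb from SHC1. How many of all NDRs are ordered this way was not counted. The 4 chromosome V values differ in medium as well as in distance from the VP.

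Beyond 30 kb in cis, 33 of 219 NDRs were called higher from SHC1 (15.1%) and 15 of 219 from LSM4 (6.85%), while TRP2 +met had 1 of 216 (0.463%) and TRP2 −met 3 of 216 (1.39%). On the other chromosomes the shares were 3.57% at SHC1, 4.03% at LSM4, 0% at TRP2 +met and 0.109% at TRP2 −met. The median distance of these far calls was 110 kb at SHC1 and 153 kb at LSM4, and the farthest were SIT1/YEL067C at 325 kb and UTR2 at 310 kb, both on the left arm. SIT1 is an iron-siderophore transporter and UTR2 a cell wall enzyme. The 33 far NDRs at SHC1 had a median base mean of 157 reads and 11 GC sites. The 185 that were not called had 36.9 reads and 6 sites. The far calls thus stood at the higher base means, to which their own rise in the targeted libraries contributes. The running median of the log2 fold change over base mean was then taken out. After that, 21 of the 239 NDRs of chromosome V remained called at SHC1 (8.79%, against 0.891% of all NDRs), and 10 of these 21 were far. At LSM4 5 of the 239 remained (2.09%, against 0.580%), 3 of them far. The counts at TRP2 were then 6 (against 0.124%) and 7 (against 0.228%). The far calls of TRP2 −met went from 3 to 2, since GPP2/THO1, at 0.63, was no longer called.

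The 8 strongest far NDRs of SHC1 were the 2 of PTP3, with 2.00 (SE 0.136) and 1.22 (SE 0.197), OXA1/PET122 with 1.77 (SE 0.177), COM2 with 1.43 (SE 0.132), MNN1 with 1.38 (SE 0.158), LSM5/FTR1 with 1.24 (SE 0.200), GTT3/PMP2 with 1.22 (SE 0.153) and COX15 with 1.13 (SE 0.282). OXA1 encodes the insertase of the inner mitochondrial membrane and PET122 a translation activator of the mitochondrial COX3 mRNA. COM2 is a zinc-finger transcription factor, MNN1 a mannosyltransferase of the Golgi, FTR1 the high-affinity iron permease, PMP2 a small proteolipid of the proton pump Pma1, and COX15 a heme A synthase. They lay from 40.4 kb (PTP3) to 229 kb (GTT3/PMP2) from the VP, on both arms.

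Of these 8, 6 were also called from LSM4: PTP3 left with 1.24 (SE 0.177), COM2 with 1.15 (SE 0.154), GTT3/PMP2 with 1.10 (SE 0.164), OXA1/PET122 with 1.10 (SE 0.208), MNN1 with 1.07 (SE 0.171) and COX15 with 0.85 (SE 0.271). The right PTP3 NDR had 0.55 (SE 0.213) and LSM5/FTR1 0.49 (SE 0.233) there, neither called. With the running median over base mean taken out, PTP3 left, COM2 and OXA1/PET122 remained called from LSM4. GTT3/PMP2, MNN1 and COX15 were then called from SHC1 alone of these 2 VPs. The other far NDRs among the strongest of LSM4 were NUG1, a GTPase of 60S subunit export, with 0.91 (SE 0.232), MIG3, a repressor, with 0.88 (SE 0.182), and MXR1, a methionine sulfoxide reductase, with 0.87 (SE 0.225). SHC1 and LSM4 share their control libraries, so their values are set side by side and not counted as separate evidence.

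The far calls of TRP2 were fewer but fell on NDRs that SHC1 also called. OXA1/PET122, 136 kb from TRP2, gave 0.95 (SE 0.191) with methionine and 1.26 (SE 0.185) without. RPL34A, a ribosomal protein gene, gave 0.89 (SE 0.210) and GPP2/THO1, where GPP2 is a glycerol-phosphate phosphatase, 0.75 (SE 0.171) without methionine, against 0.53 and 0.52 with it, which were not called. PTP3 left and OXA1/PET122 were the 2 NDRs called higher in all 4 chromosome V tables. All 6 higher calls of TRP2 +met lay on chromosome V, so no NDR elsewhere could be called in all 4. In all, 49 NDRs were called higher in at least 1 of the 4 tables. Of these, 35 (14.6%, against 2.46% of all NDRs) were called there alone, and 14 (5.86%, against 3.67%) in other tables too.

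Over the 199 NDRs more than 30 kb from all 3 VPs, the median log2 fold change was 0.133 from SHC1, 0.088 from LSM4, 0.086 from TRP2 −met and 0.078 from TRP2 +met. On the chromosomes that carry no VP in any strain the medians were −0.032, −0.023, −0.005 and 0.001. The difference was 0.165, 0.111, 0.092 and 0.077, while in the other 17 tables it lay between −0.010 and 0.061, so the 4 tables did not overlap with the 17. The interior of the left arm had medians from −0.08 to 0.04 in the 4 tables. Values above 0 made up 57.3% of the 199 NDRs from SHC1 and from LSM4, 70.9% from TRP2 −met and 62.3% from TRP2 +met, against 46.7% to 50.1% on chromosomes without a VP in the same 4 tables. These shifts are small beside the SE of a single NDR and are given as descriptions. Among the 16 chromosomes, chromosome V had the highest median in each of these 4 tables (0.144, 0.087, 0.080 and 0.082 over NDRs beyond 30 kb of the VP, against at most 0.019, 0.068, 0.021 and 0.034 on any other), and in none of the other 17. This rank was not particular to chromosome V. The chromosome of the VP also ranked highest for PCL10, VHR1, MBR1, MNR2 and every MAT table, with 0.341 for MATa in glucose. It did not for PUS2, OLE1, CDC43, LHS1 and the YBP2 tables. With the limit at 50 kb in place of 30 kb, the difference at TRP2 +met was 0.054, under that of 2 of the 17 tables.

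**Figure D2:**
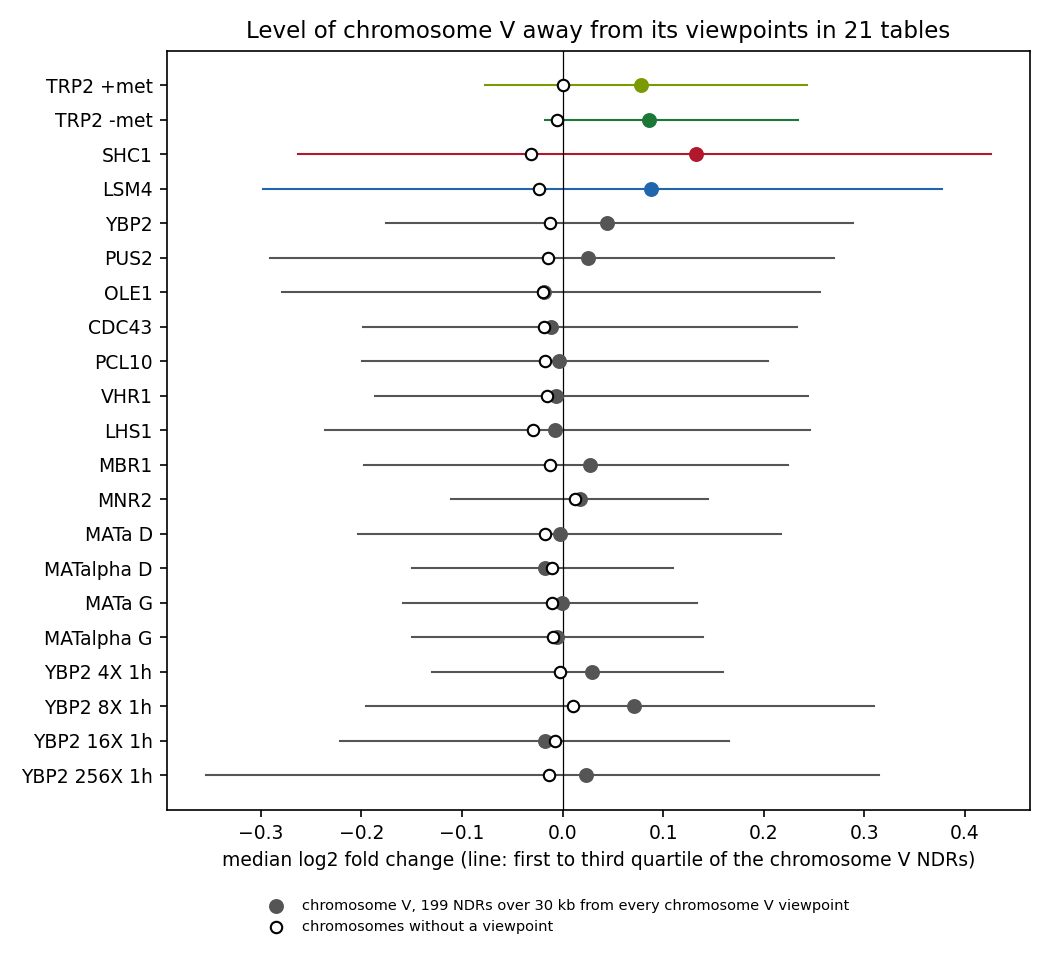
Median log2 fold change over the 199 chromosome V NDRs more than 30 kb from every chromosome V VP (filled points, with lines from the lower to the upper quartile) and over the NDRs of chromosomes without a VP (open points), for 21 tables. In the top 4 rows, with a VP on chromosome V, the filled point is 0.077 to 0.165 to the right of the open one.

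The medians over both sides of the VP fell with distance in the TRP2 tables, with 1 exception. Without methionine the median was 0.33 at 20 to 30 kb, above the 0.30 at 10 to 20 kb. From TRP2 +met the median went from 1.05 within 5 kb to 0.35 at 10 to 20 kb, 0.24 at 30 to 50 kb, 0.15 at 50 to 100 kb, 0.09 at 100 to 200 kb and −0.01 beyond 200 kb, and from TRP2 −met from 0.85 to 0.30, 0.25, 0.10, 0.10 and 0.04. From SHC1 it was 2.04 within 5 kb and 2.01 at 5 to 10 kb, fell to −0.09 at 10 to 20 kb, where 1 of 6 NDRs was called, and was 0.55 at 30 to 50 kb, 0.32 at 50 to 100 kb, 0.10 at 100 to 200 kb and 0.05 farther away. The bins under 30 kb held 2 to 9 NDRs each, so the dip at SHC1 rests on few. From LSM4 the medians were 0.74, 0.51, 0.13, 0.39, 0.04, 0.16, 0.09 and 0.02 in the same order of distance. All of these take both sides of the VP together. To the right of TRP2 alone, the medians did not fall steadily beyond 30 kb. From 30 kb outwards they were 0.04, 0.17, 0.14 and 0.12 with methionine and 0.08, 0.05, 0.09 and 0.11 without it.

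On the right arm between the centromere and the VPs, the 55 NDRs outside the local regions had medians of 0.17 (SHC1), 0.12 (LSM4), 0.17 (TRP2 −met) and 0.11 (TRP2 +met). In the interior of the left arm, the 42 NDRs had 0.01, 0.02, 0.04 and −0.08. The 36 NDRs within 30 kb of the centromere had 0.12, 0.02, 0.09 and 0.09. The 50 NDRs between the VPs and the right end had 0.08, 0.03, 0.10 and 0.16, and the last 30 kb on that side, with 8 NDRs, 0.10, 0.10, 0.11 and 0.18. The right arm on the centromere side was above the interior of the left arm in all 4 tables, by 0.107 (LSM4) to 0.182 (TRP2 +met). The same order stood in 7 of the 17 other tables, where the difference ran from −0.176 to 0.13, the highest of them from VHR1.

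From VPs on other chromosomes, chromosome V NDRs were called higher at about the rate of all NDRs. The count was 6 from YBP2 (2.67% of all NDRs were called), 3 from PUS2 (0.766%), 0 from OLE1 (0.311%), 7 from CDC43 (2.71%), 1 from PCL10 (0.601%), 5 from VHR1 (1.47%), 12 from LHS1 (3.94%), 2 from MBR1 (0.870%) and 0 from MNR2 (0.311%). In the MAT tables it was 1 for MATa in glucose (0.726%), 1 for MATa in galactose (0.124%) and 0 for MATα in glucose (0.269%) and galactose (0.228%). After 1 h at YBP2 it was 10 with 256 copies (4.54%) and 0 with 4 (0.166%), 8 (0.0414%) and 16 copies (0.166%). The same 1 h tables held 11 NDRs called lower with 256 copies (3.21% of all NDRs), 1 with 8 copies (0.435%), and 0 with 4 (0.0621%) and 16 copies (0.124%). Of the 239, 21 NDRs were called higher in at least 1 of the 17 tables (8.79%, against 10.8% of all NDRs), 14 of them also in a chromosome V table (5.86%, against 3.67%). Another 35 were called in chromosome V tables alone (14.6%, against 2.46%), and 183 in no table (76.6%, against 86.7%).

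A small group recurred from VP to VP. OXA1/PET122 and MNN1 (chrV:153007-153391, 1.15 kb from the centromere) were called in 6 of the 17 tables, GTT3/PMP2 (chrV:123025-123608, 28.7 kb from the centromere on the left arm) and PTP3 left in 5, MIG3 in 3, and COM2, PCL6, a cyclin of the kinase Pho85, and AFG3/ISC1 in 2. AFG3 is a mitochondrial protease subunit, and its NDR was not called in a chromosome V table. All of these calls but those of AFG3/ISC1, 1 of OXA1/PET122 and 1 of COM2 came from tables with the same control. With the running median over base mean taken out, calls from the 9 VPs were fewer, on chromosome V as over all NDRs. Why was not tested. The count on chromosome V was then 0 for YBP2 (0.476% of all NDRs called), PUS2 (0.290%), CDC43 (0.725%), PCL10 (0.186%), VHR1 (0.642%) and MBR1 (0.373%). LHS1 had 2 (0.704%). MATa in glucose (1.12%) and YBP2 with 256 copies after 1 h (1.72%) had 1 each. PTP3 left ranged from 0.43 (MNR2) to 1.05 (LHS1) over the 9 VPs, against 2.00 and 1.24 from SHC1 and LSM4, and from −0.14 to 0.29 in the MAT tables. OXA1/PET122 ranged from 0.55 (MNR2) to 1.15 (LHS1) over the 9, above the 1.10 of LSM4 in 1 of them, and from −0.33 to 0.27 in the MAT tables. MNN1 ranged from 0.45 (MNR2) to 1.00 (PUS2) over the 9, but was 0.02 (SE 0.183) from TRP2 +met and 0.23 (SE 0.174) from TRP2 −met. GTT3/PMP2 ranged from 0.54 to 1.12 over the 9 and was −0.11 and 0.29 from TRP2. Thus MNN1, GTT3/PMP2 and MIG3 rose in several of the 11 tables of 1 control and were not called from TRP2, while PTP3 and OXA1/PET122 were called from TRP2 as well.

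One NDR went the other way. GLO3/YCK3 (chrV:404413-404616), with 4 GC sites, was called lower from LSM4 and in 6 of the 17 tables, from −1.02 (VHR1) to −1.76 (YBP2, 256 copies, 1 h), and stood at −0.32 (SE 0.326) from SHC1. GLO3 encodes a GTPase-activating protein of Golgi transport and YCK3 a vacuolar casein kinase. Its base mean was 1.42 to 49.4 reads over the 21 tables. KAP123, a karyopherin, was lower from YBP2 (−1.003) and LHS1 (−0.985), and DSF1 from LSM4 (−1.09) and CDC43 (−0.89). Of all NDRs, 0.373% were lower from YBP2, 0.104% from OLE1, 0.352% from VHR1, 0.787% from LHS1, 0.290% from MBR1 and 0.311% from CDC43.

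**Figure D3:**
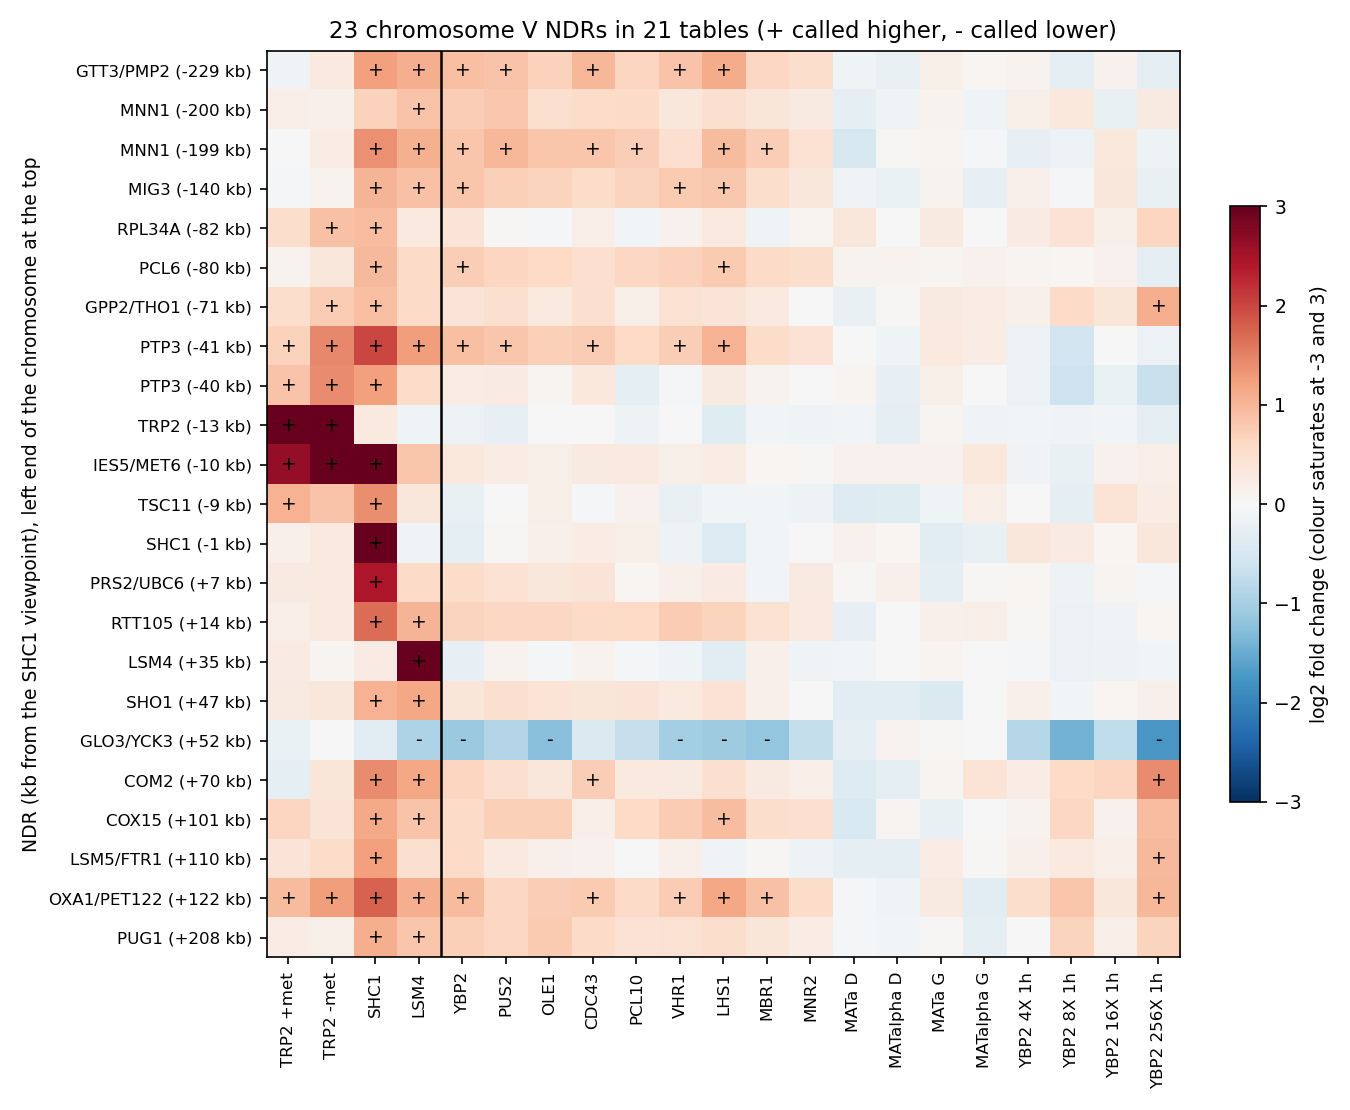
Log2 fold change of 23 chromosome V NDRs (rows, from the left end of the chromosome at the top, with the distance from SHC1 in kb) in the 21 tables (columns, the 4 chromosome V tables left of the line), with + and − for NDRs called higher and lower. IES5/MET6 is dark in 3 columns alone, with 2.63 to 3.60, while MNN1 and GTT3/PMP2 are pale red across the tables of 1 control and near 0 from TRP2.

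Whether the VPs on chromosome V raised its NDRs beyond what the VPs elsewhere did was tested with limma over all 4828 NDRs, SHC1 and LSM4 against the 9 VPs of the same control. The fit counts each VP as a separate unit, though SHC1 and LSM4 lie only 35.0 kb apart on 1 arm. Among the 9, YBP2, PUS2, OLE1, CDC43 and PCL10 all lie on chromosome VII. The p-values therefore do not cover how VPs at unrelated places on chromosome V would vary. Of all NDRs, 15 were higher at an adjusted p under 0.05 (0.311%), and all 15 lay on chromosome V. The 4 NDRs that were lower (0.0829%) lay on other chromosomes. At an unadjusted p under 0.05 in limma, 64 of the 239 were higher (26.8%, against 283 or 5.86% of all NDRs) and 12 lower (5.02%, against 351 or 7.27%). The values of SHC1 and LSM4 were both above all 9 others at 54 of the 239 NDRs (22.6%, against 6.11% of all NDRs) and both below at 5 (3.67% of all NDRs). Of the 205 NDRs more than 30 kb from both VPs, 35 had both values above.

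Of the 15, 11 lay within 30 kb of one of the VPs. IES5/MET6 had the largest difference, 1.71 (SE 0.297, limma adjusted p = 0.0115), from 2.98 and 0.84 against a mean of 0.20 in the others. RPS8B/AST2 differed by 1.10 (SE 0.225) and the NDR inside TSC11 by 0.93 (SE 0.180), each with the larger value at SHC1. BOI2, in front of a gene of polar growth, differed by 0.83 (SE 0.118, limma adjusted p = 0.00299), with 0.80 and 0.87 against −0.13 to 0.16. SWI4/LSM4, where SWI4 encodes a cell cycle transcription factor, differed by 0.81 (SE 0.137), AVT6/SCS2 by 0.78 (SE 0.156), SHO1 by 0.78 (SE 0.126), RTT105 by 0.75 (SE 0.147), TMN3 by 0.74 (SE 0.125) and YER085C/ILV1 by 0.68 (SE 0.146). TMN3 stood at 0.18 and 0.45 against −0.64 to −0.27 in the others, so the difference came as much from the others being below 0.

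The 4 that lay more than 30 kb from both VPs were 2 pairs. PTP3 left and right differed by 0.89 (SE 0.170) and 0.78 (SE 0.162, limma adjusted p = 0.0268 and 0.0394). COM2 differed by 0.88 (SE 0.142) and RPS26B/COM2, its neighbor, by 0.86 (SE 0.117), with limma adjusted p of 0.00881 and 0.00299. RPS26B encodes a protein of the small ribosomal subunit. At RPS26B/COM2 SHC1 gave 0.90 and LSM4 0.78, against −0.18 to 0.16 from the 9 others. MNN1, GTT3/PMP2 and OXA1/PET122 did not pass. The NDRs at the VPs themselves did not pass either, since each was high from 1 VP only, with 4.67 and −0.10 for SHC1 and 0.26 and 4.41 for LSM4. With SHC1 left out, 1 NDR was higher and none of the 15 was among it. With weights from the SEs 27 of all NDRs were higher, 26 of them on chromosome V. With PUS2 and OLE1 left out, 28 of all NDRs were higher, 23 of them on chromosome V, and 48 lower, 1 of them on chromosome V. The calls were then no longer confined to chromosome V. With TRP2 −met added as a VP 8 were higher, all of them among the 15. With the running median over base mean taken out of each table, the test called 12 higher, 11 of them among the 15. The 4 that no longer passed were IES5/MET6, the right PTP3 NDR, RTT105 and AVT6/SCS2, with limma adjusted p of 0.0510, 0.0971, 0.0741 and 0.0815.

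**Figure D4:**
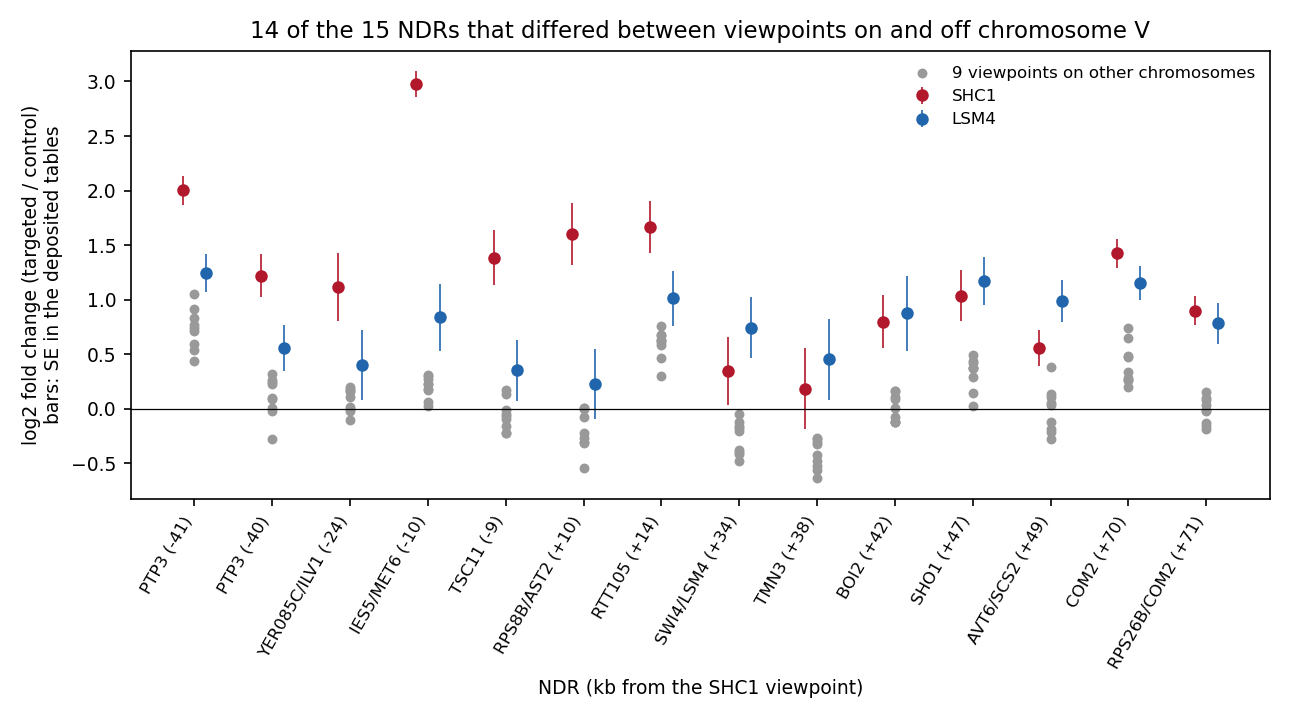
Log2 fold change of 14 of the 15 NDRs that passed the limma test, from left to right along the chromosome, from SHC1 and LSM4 (colored, with the SE of the deposited tables) and from the 9 VPs on other chromosomes (gray). Both colored points lie above all gray points at each NDR, and from PTP3 to RTT105 the SHC1 value is above that of LSM4.

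The TRP2 tables ask whether the contacts of the locus change when the methionine genes are induced. The difference of the log2 fold changes, without minus with methionine, passed at 1 chromosome V NDR, IES5/MET6, which was higher without methionine by 0.97 (SE 0.204). The test was the two-sided normal test with adjustment over all 4827 NDRs, of which 2 were higher (0.0414%) and 0 lower. At an unadjusted p under 0.05, 5 chromosome V NDRs were higher without methionine and 0 lower, and over all NDRs 75 and 11. Its base mean was 1206 reads with and 2204 without methionine. With the running median over base mean taken out of each table, the difference was 0.69 and no longer passed. The NDR beyond TRP2 differed by −0.09, PTP3 left by 0.74 (SE 0.227) and COM2 by 0.63 (SE 0.204), none of which passed. The median over the 239 NDRs was 0.03 and that of all NDRs 0.00.

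**Figure D5:**
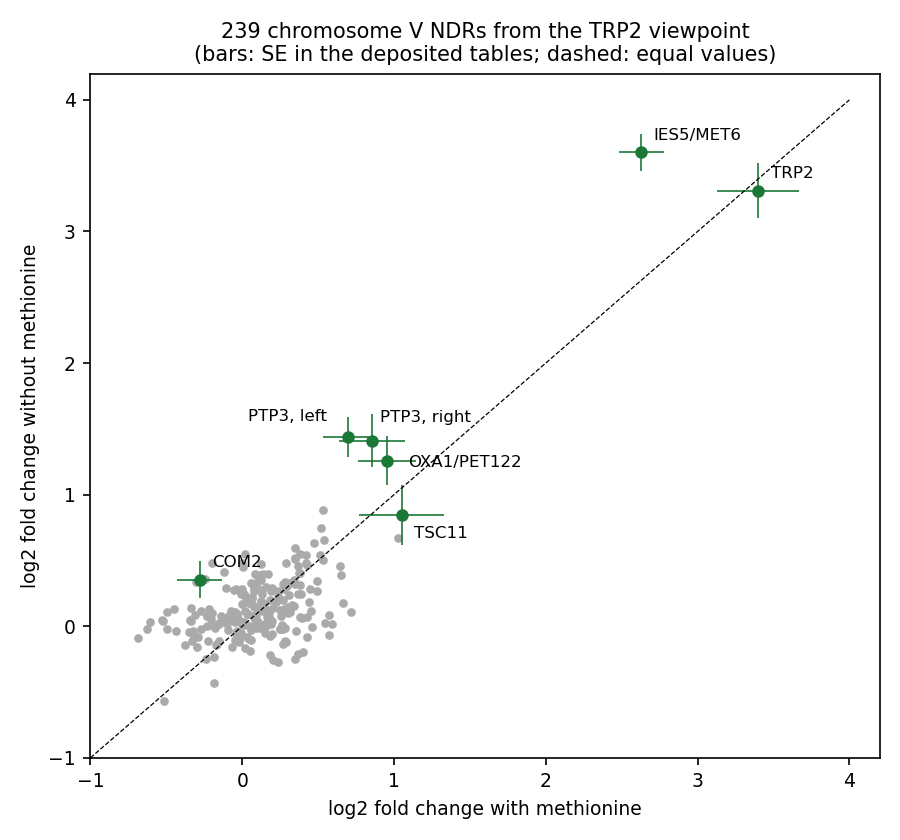
Log2 fold change of the 239 chromosome V NDRs from the TRP2 VP without methionine (vertical axis) against that with methionine (horizontal axis), 7 NDRs named and drawn with the SE of each deposited table. IES5/MET6 lies above the dashed line of equal values by 0.97, and the NDR beyond TRP2 lies on it.

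The 2 neighbors SHC1 and LSM4 differed at 5 NDRs of all 4828, and all 5 were on chromosome V. Higher from SHC1 (0.0829% of all NDRs) were the SHC1 NDRs by 4.77 (SE 0.426) and 3.36 (SE 0.433), IES5/MET6 by 2.14 (SE 0.329) and PRS2/UBC6 by 1.85 (SE 0.427). Higher from LSM4 (0.0207% of all NDRs) was the LSM4 NDR, with a difference of −4.16 (SE 0.393). All 5 lay within 10 kb of the favored VP. The tables share their control, so the SE of each difference is too large. No NDR beyond 30 kb of both passed, but the median SE of a difference on chromosome V was 0.433, so smaller differences could not be seen.

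SHC1 and TRP2 −met, 13.8 kb apart and with separate controls, differed at 14 chromosome V NDRs, 11 higher from SHC1 (1.33% of all NDRs) and 3 from TRP2 (0.663%). With the running median over base mean taken out of each table, 6 were higher from SHC1 and 6 from TRP2. The share over all NDRs is not given for this setting. Not all of the NDRs named next as higher from SHC1 passed in it. Near the VPs, the 2 SHC1 NDRs, PRS2/UBC6 and RTT105 were among those higher from SHC1, by 4.37, 2.29, 2.13 and 1.37. The NDR beyond TRP2 was higher from TRP2 (−3.03, SE 0.403), and so was IES5/MET6 (−0.62, SE 0.182), which lies 3.91 kb from TRP2 and 9.85 kb from SHC1. Far from both, MNN1 (1.14), SIT1/YEL067C (1.14), NUG1 (1.12), COM2 (1.07), GTT3/PMP2 (0.93) and MIG3 (0.91) were higher from SHC1, and the subtelomeric YER188C-A was lower (−0.96). On all chromosomes 64 NDRs were higher from SHC1 and 32 lower. PTP3 left (2.00 and 1.44) and OXA1/PET122 (1.77 and 1.26) did not pass.

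Lists of chromosome V genes, chosen with earlier results of these data known, are read against the shares called higher over all 239 NDRs, which were 18.4% from SHC1, 7.95% from LSM4, 2.51% from TRP2 +met and 2.93% from TRP2 −met, and over all 4828, which were 4.31%, 4.23%, 0.124% and 0.249%. Of the 4 methionine and sulfur genes, MET6 was called in 3 tables and MXR1 in 2 (0.80 from SHC1, 0.87 from LSM4), while SAH1, the S-adenosylhomocysteine hydrolase, had 0.19 and 0.15 and HOM3, the aspartate kinase, −0.26 and −0.44. Of the 11 NDRs of amino acid and nucleotide synthesis, 4 were called from SHC1 and none from LSM4. They were ILV1 (1.12), RNR1, the large subunit of ribonucleotide reductase (0.97), ARG5,6 of arginine synthesis (0.83) and HIS1 of histidine synthesis (0.83), all on the right arm, 24.2 to 86.4 kb from SHC1. URA3, on the left arm, had 0.00. The median of this list was 0.14 from SHC1, beside 0.16 over all 239 NDRs and −0.03 over all 4828.

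Ribosomal protein genes had 3 of 6 NDRs called from SHC1, RPS8B (1.60), RPL34A (0.93) and RPS26B (0.90), 1 from LSM4, 1 from TRP2 −met and 0 from TRP2 +met, with a median of 0.78 from SHC1 and 13 to 22 GC sites each. Of 8 transporter NDRs, 2 were called from SHC1 (FTR1 and SIT1) and 1 from LSM4 (AVT6, a vacuolar amino acid exporter). Of 9 cell wall and glycosylation NDRs, 2 were called from SHC1 (SHC1 itself and MNN1) and 3 from LSM4 (the 2 of MNN1, and UTR2). Of 7 stress NDRs, GPP2 was called from SHC1 and TRP2 −met, and of 9 mitochondrial NDRs, COX15 was called from both SHC1 and LSM4 and RIP1, the Rieske protein, from SHC1. No NDR of these 7 lists was called lower in the 4 tables.

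NDRs with more GC sites had more reads, and in the SHC1 and LSM4 tables also higher fold changes, as in part from VPs on other chromosomes. In the 41 NDRs with 0 to 3 sites the median base mean at SHC1 was 16.5 reads and the median log2 fold change −0.28, in the 119 with 4 to 9 sites 40.4 and 0.12, in the 60 with 10 to 19 sites 66.5 and 0.37, and in the 19 with 20 or more 245 and 0.73. The same order held at LSM4, from −0.31 to 0.43, and at CDC43, from −0.22 to 0.24. From PUS2 the medians were −0.31, 0.02, 0.23 and 0.12, and from OLE1 −0.31, 0.00, 0.16 and 0.07. Across the 239 NDRs, which share libraries and depth, Spearman's rho between GC sites and fold change was 0.494 at SHC1, 0.547 at LSM4, 0.464 at PUS2 and CDC43 and 0.442 at OLE1. At TRP2 −met the medians were 0.06, 0.08, 0.14 and 0.35, and at TRP2 +met 0.13, 0.10, 0.07 and 0.12. Longer NDRs hold more sites and more reads, and the parts of these in the fold changes were not tested.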

How the data were processed

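MeDIP-seq libraries of MTAC strains were compared per NDR between targeted and control strains, 2 libraries each. According to the submitters' processing notes and the methods, the authors trimmed reads with fastp 0.23.2, aligned them to sacCer3 with BWA 0.7.17, removed duplicates with Picard, counted reads per NDR with featureCounts 2.0.3 and compared strains with DESeq2 1.38.0. The deposited tables hold the base mean (a coverage signal, in normalized reads), its log2 fold change with an SE on the same scale, and a Wald score. They also hold the authors' p-value, adjusted p-value and −log10 of the latter, which were not used. Log2 fold changes and SEs are the authors' comparisons and were used because the tables hold no values per library. Library depths were not used here, and precision is given by the SEs.

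Two-sided normal p-values were recomputed from log2 fold change and SE and adjusted (Benjamini-Hochberg) over all NDRs of a table. An NDR was called at an absolute log2 fold change over 0.7 and an adjusted p under 0.05. Differences between tables used the root of the summed squared SEs. Viewpoints were compared with limma 3.58.1 (R 4.3.3), 1 column per viewpoint, with 9 residual degrees of freedom. Python 3.11.15, numpy 2.4.6, pandas 2.3.3, scipy 1.17.1 and matplotlib 3.10.9 were used. Scripts were tested on simulated data. The shared control was recognised from control levels back-calculated from base mean and fold change, which correlated at 0.997 to 0.999 across NDRs among the 11 tables. In the tables MATa D, MATα G and TRP2 −met, 5, 3 and 1 NDRs had no usable value, none of them on chromosome V. The viewpoint is the midpoint of the gene named in the genotype, and local means within 30 kb. NDR ends were taken from the study's NDR list, sequences from RefSeq (R64, sacCer3).

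NDRs named in the text are the called local NDRs and the 8 strongest far calls of each chromosome V table, the 8 that recurred most in other tables, the 5 highest and lowest of each contrast, those past the limma test, and members of the gene lists. KAP123, DSF1 and other NDRs outside these were named after their values were seen. Members, lists and tests were chosen with earlier results of these data known. Alternatives were a cutoff of 1, removal of the running median over base mean (window of 301 NDRs), leaving out base means under 10, other local distances, SE weights, leaving out viewpoints, and means in place of medians. Values of some NDRs that enter the counts are not reported here.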

Additional observations from a re-analysis of the deposited data

Results flagged for a closer look

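The differences below passed a test of the difference between 2 tables, and no cause was tested. IES5/MET6 was higher from TRP2 without methionine than with it, by 0.97. This difference no longer passed with the running median over base mean removed.

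Between SHC1 and LSM4, SHC1 was higher at IES5/MET6 by 2.14, at the SHC1 NDRs by 4.77 and 3.36 and at PRS2/UBC6 by 1.85, and the LSM4 NDR differed by −4.16.

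Between SHC1 and TRP2 −met, the NDRs near the viewpoints differed by 4.37 and 2.29 (SHC1), 2.13 (PRS2/UBC6), 1.37 (RTT105), −0.62 (IES5/MET6) and −3.03 (TRP2). Far from both, the differences were 1.14 (MNN1), 1.14 (SIT1/YEL067C), 1.12 (NUG1), 1.07 (COM2), 0.93 (GTT3/PMP2), 0.91 (MIG3) and −0.96 (YER188C-A). Not all of the NDRs higher from SHC1 passed with the running median over base mean removed. None of the 34 named NDRs had a value that stood apart from the rest among the 9 viewpoints on other chromosomes.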

How the results depend on the processing

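No paired analysis was possible because the deposited tables pool the libraries of each group. Leaving out a replicate was not possible for the same reason. For single NDRs, counted once per alternative setting, 331 results kept their direction and their side of the threshold. Another 81 kept the direction and lost the call, and none reversed. The same NDR enters under several settings, and 79 of the 331 came from leaving out base means under 10, so these are not separate NDRs. With a cutoff of 1, calls fell to 3 for TRP2 +met, 23 and 0 lower for SHC1, 8 for LSM4 and 6 summed over the other 17 tables, from 6, 44, 1, 19 and 48. With the running median over base mean removed they were 21 for SHC1, 5 for LSM4 and 4 for the 17 tables, 0 for the methionine difference, and 6 higher and 6 lower for SHC1 against TRP2 −met. The cause was not tested. With a local distance of 20 kb, TRP2 +met had 3 local and 3 far calls and TRP2 −met 2 and 5, and the latter also had 2 and 5 with the viewpoint at its highest NDR. With 50 kb SHC1 had 17 local calls. On chromosome V, the 15 limma calls became 26 with SE weights, 23 (and 1 lower) without PUS2 and OLE1, and 8 with TRP2 −met added. Without PUS2 and OLE1, 28 were higher and 48 lower over all chromosomes. Leaving out 1 viewpoint gave 1 (without SHC1) to 19 calls (without LSM4). The shift of chromosome V was 0.054 at TRP2 +met and 0.140 at SHC1 beyond 50 kb, 0.121 at TRP2 −met and 0.0727 at LSM4 as a mean, and 0.0993 at SHC1 and 0.0569 at LSM4 without the running median. With the NDRs called in other tables left out, an alternative chosen after seeing the data, it was 0.102 at SHC1 and 0.0619 at LSM4. Base means under 10 left out changed none of the 79 single results computed with that setting.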

Other observations

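With 256 LacO copies at YBP2 after 1 h, the lowest of the 11 chromosome V NDRs called lower was HOM3, the aspartate kinase of methionine and threonine synthesis, at −1.88 (SE 0.333, base mean 65.3). GLO3/YCK3 had −1.76 (SE 0.391), and the other 9 lay between −1.39 (CCA1/RPH1) and −0.78 (BMH1, a 14-3-3 protein). HOM3 stood at −0.26 from SHC1 and −0.44 from LSM4. The highest of the 10 called higher in the same table were COM2 at 1.42 (SE 0.233) and AFG3/ISC1 at 1.33 (SE 0.218).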
